A study of Rattus norvegicus with 192 samples.

Results

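The liver-enriched genes described here are 150 genes whose transcripts stood far above the other tissues in the liver of Zucker diabetic fatty (ZDF) rats fed casein. They were chosen by level alone: a median of at least 20 CPM (a gene's reads scaled to a common library total) in the liver of casein ZDF rats, at least 10 times the median in kidney, adipose tissue and prefrontal cortex (PFC), and then the 150 with the highest liver median. Of the 12563 genes in any mRNA table, 3486 reached the level in liver and 250 also passed the fold, so the 150 are the upper part of that set. ZDF rats (male, fa/fa) lack a working leptin receptor and are a model of type 2 diabetes (T2DM), and the lean controls carry 1 copy of the same allele (fa/+). Both were obtained at 6 wk of age and fed for 8 wk a diet with 20% protein from whole egg or from casein (CAS), with corn oil added to CAS to match the lipid. The 24 rats fall into 4 groups of 6: ZDF rats on whole egg, ZDF rats on CAS, lean rats on whole egg and lean rats on CAS. Rats were housed in pairs, and the sources do not say which shared a cage, so p-values measure the spread between rats as if each stood alone.

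The liver makes most proteins of the blood plasma, builds and clears lipoproteins, turns ammonia into urea, converts cholesterol into bile acids, and oxidizes and conjugates steroids and foreign compounds. Many of these enzymes and secreted proteins are made by hepatocytes and by few other cells, which is why a filter on tissue level finds them together. In rats several of them, among them members of the cytochrome P450 family Cyp2c and the urinary proteins, also differ between males and females.

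A gene symbol could be given to 37 of the 150, because identifiers were paired with symbols only where the study listed a gene as called by diet in some tissue. The other 113 are counted and have no name here. The named members are therefore genes that the study had called on these same rats, and their share of changed genes is not a fair picture of the 150. Genotype was taken from the column names of the tables. The strain in the sample labels differs for 12 of the 24 rats, among them 4 of the 6 whole egg and 2 of the 6 CAS rats of the ZDF liver comparison, and the calls without those rats are given at the end of each comparison. In the ZDF liver the total count per library was 735993 to 9284567. The paired hepatocyte markers Apoa1 and Cps1 (2 of 10 listed) summed to 2442 to 4794 CPM in the 12 ZDF livers. The adipocyte markers Adipoq, Fabp4 and Retn (3 of 6) summed to 9.59 to 82.9 CPM. Lyz2 of macrophages (1 of 7) had 8.81 to 54.1 CPM and Col3a1 of fibroblasts (1 of 5) 47.6 to 133 CPM. Apoa1 and Cps1 are themselves members, so their high level follows from the rule. Apoa1 also differed by diet, so their sum is no measure of cell content.

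The 150 members covered a wide range of levels in casein ZDF liver. Their medians ran from 109 CPM to 116364 CPM, with a middle value of 470 CPM. Summed, the medians came to 293529 CPM, or 29.4% of a library, of which the 10 highest members took 187350 CPM. The highest member, ENSRNOG00000002911, held 116364 CPM alone. The only one of the 10 highest with a symbol was Gc, the vitamin D binding protein of plasma, at 8433 CPM. At the lower end, the last member (ENSRNOG00000013684) had a liver median of 109 CPM, and the next gene of the ranking, Etnk2, missed with 107 CPM. On the fold, Tymp (thymidine phosphorylase) stood just inside, at 185 CPM in liver and 10.5 times its highest other tissue, and Mup5, a urinary protein gene, just outside, at 645 CPM in liver and 9.90 times adipose tissue.

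**Figure D1:**
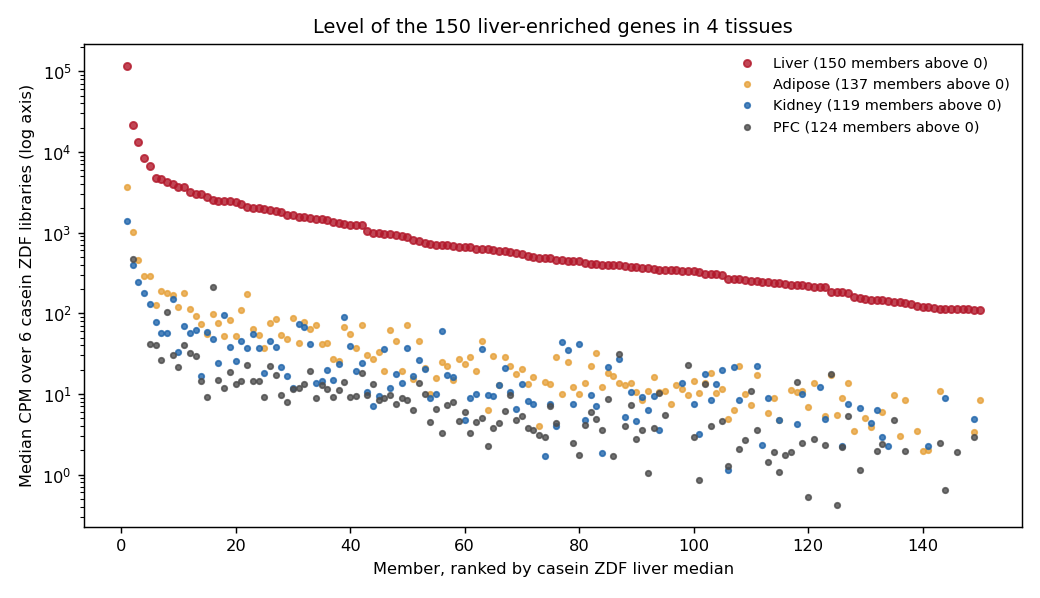
Each point is the median CPM (log axis) of 1 member over the 6 casein ZDF libraries of a tissue, with the 150 members ranked by liver level on the x axis; medians of 0 are not drawn. The liver points run from 116364 to 109 CPM, and the points of adipose tissue, kidney and PFC lie at least 10-fold below them, as the rule demands.

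The level rule was then checked in the ZDF rats on whole egg, whose libraries did not choose the members. In them 143 of the 150 kept a liver median at least 10 times that of each other tissue, 142 passed both level and fold, and 132 were among the 150 highest of the 261 genes that passed by whole egg. Members with no row for a tissue (31 in kidney, 13 in adipose tissue and 26 in PFC) pass that tissue on either diet. For them this is no check of that tissue. A missing row need not mean no transcript: Gc has none in ZDF PFC, yet had 13.8 to 51.3 CPM in the PFC of lean rats on CAS. Within a diet, members varied slightly more than other genes of like level did. Over 6 livers, their coefficient of variation had a median of 23.1% on whole egg and 27.5% on CAS. Over the 617 other genes at or above the lowest member's level it was 20.5% on whole egg and 23.8% on CAS. The steadiest member on whole egg was Cyp2c13 (3.68%), a cytochrome P450 of male rat liver, and the least steady named one was Cyp17a1 (83.8%), the steroid 17-hydroxylase and lyase.

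Whole egg against casein in ZDF liver gave more called members than the genotype comparison below. The tests differ in power. In simulated data with a log2 fold change of 1, the diet test called 21 of 25 changed members and the genotype test 12 of 28. With edgeR's quasi-likelihood test on all 9722 genes of the table, 28 of the 150 members passed an FDR of 5%, 21 higher and 7 lower on whole egg. That is 18.7% of the members, where 2.93% of all genes passed (1.65% higher and 1.29% lower). Among the 767 genes at or above the lowest member's level 11.3% passed, and among the 617 of them that are not members 9.56%. All 28 calls fell on the 37 members with a symbol, and 0 of the 113 others passed in edgeR, although 38 of these had an unadjusted p under 0.05. At that unadjusted bound stood 75 of the 150 members, where 13.3% of all genes did. Of these, 57 were higher on whole egg (6.76% of all genes were) and 18 lower (6.58%). No share over genes of like level was taken at this bound. The members' log2 fold changes had a median of 0.25, with 101 above 0 and 49 below, against a median of -0.00 over all genes and 0.10 over the 617 others of like level. The casein libraries entered both the choice of members and this comparison, and in bulk liver fewer cells of a type and less RNA per cell cannot be told apart.

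**Figure D2:**
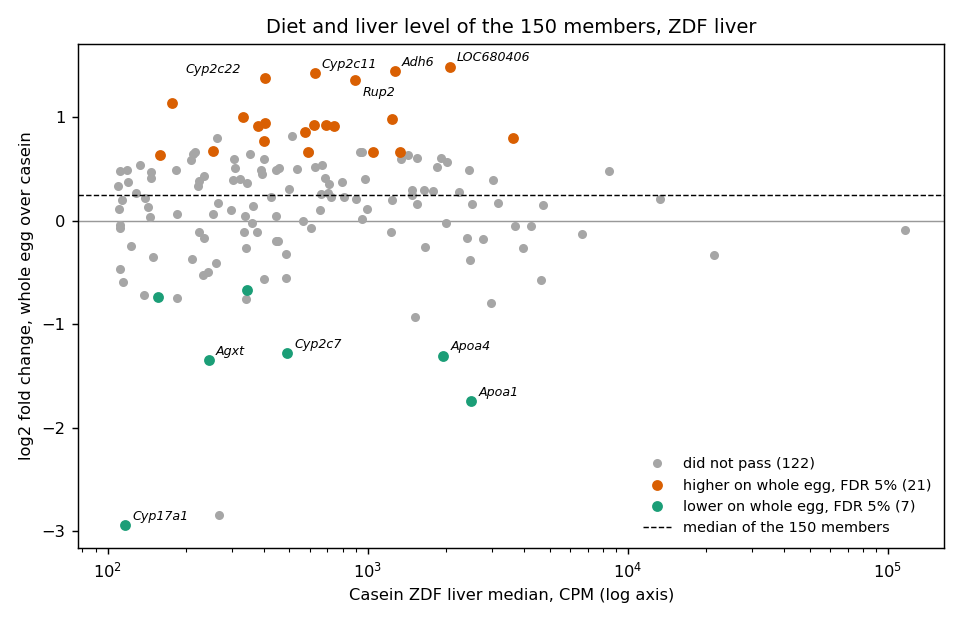
Log2 fold change, whole egg over CAS (y axis), against the casein ZDF liver median in CPM (x axis, log) for each of the 150 members; colours mark the 21 members higher and the 7 lower on whole egg at an FDR of 5%, grey the 122 that did not pass, and the dashed line the members' median of 0.25. The changed members lie between 117 and 3634 CPM, and the unnamed grey point near the bottom is ENSRNOG00000021029.

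Among lipoprotein genes, apolipoproteins fell and rose in the same livers. Apoa1, the main protein of high-density lipoprotein, had 428 CPM at the lowest, 554 at the median and 1433 at the highest in whole egg livers, against 1898, 2494 and 3425 CPM in CAS livers. Every whole egg liver lay below every CAS liver, and the log2 fold change was -1.74 (SE 0.26, adjusted p = 8.57e-05). Apoa4, a lipoprotein component also made by the intestine, had 468, 758 and 1166 CPM in whole egg livers, against 1534, 1947 and 2331 CPM in CAS livers, again with no overlap (log2 fold change -1.30, SE 0.22, adjusted p = 0.000323). The gene listed as NEWGENE_2134, named apolipoprotein C1 by the study, went the other way with 5132, 5889 and 9614 CPM in whole egg livers, against 3167, 3634 and 4283 CPM in CAS livers. Its log2 fold change was 0.80 (SE 0.19, adjusted p = 0.0145), and rat 22 alone made the highest whole egg value. Pon1, the paraoxonase carried on high-density lipoprotein, rose by 0.86 on the log2 scale (SE 0.18, adjusted p = 0.00496), with 1 CAS liver (rat 14, 864 CPM) inside the whole egg range.

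**Figure D3:**
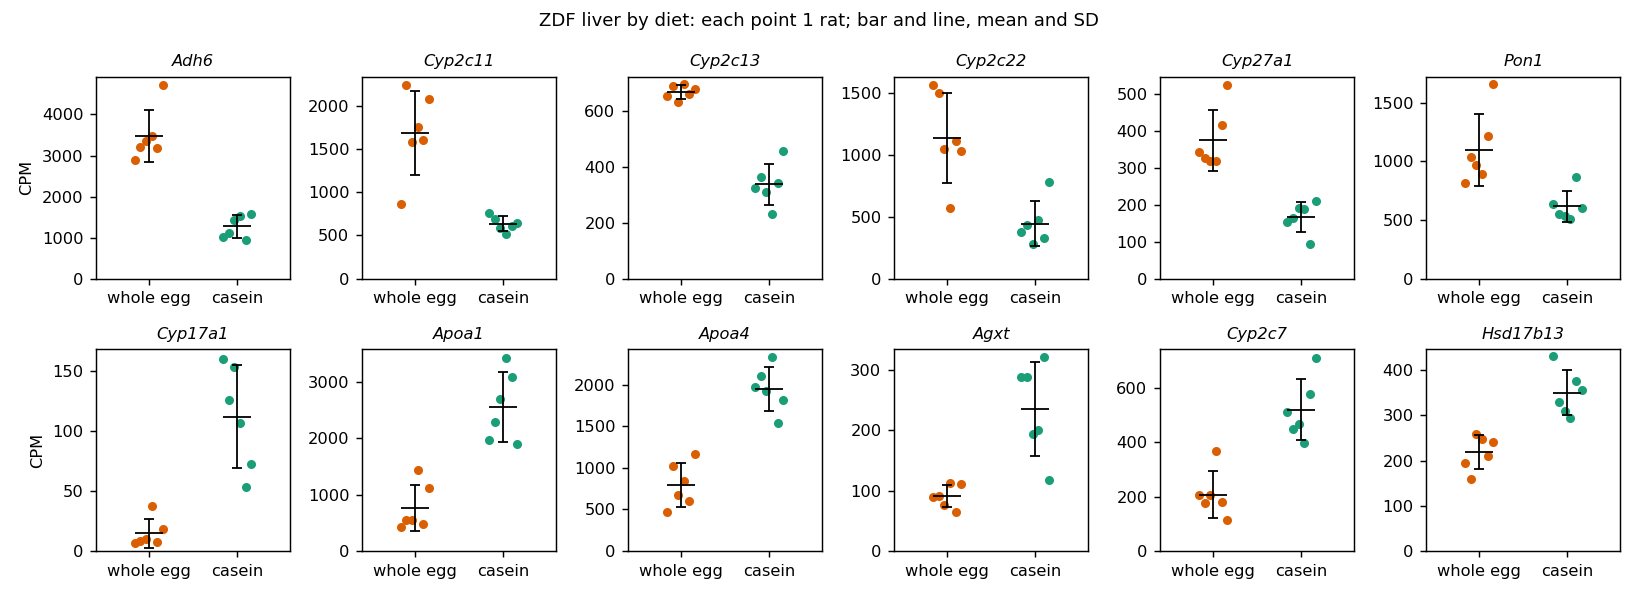
CPM (y axis, each panel from 0) in the 6 whole egg and 6 CAS livers of ZDF rats for 12 of the members that passed by diet; each point is 1 rat, the short bar the mean and the line 1 SD to each side. The upper row (Adh6 to Pon1) is higher on whole egg and the lower row (Cyp17a1 to Hsd17b13) lower, and in 10 of the 12 panels the 2 diets do not overlap, Cyp2c22 and Pon1 being the exceptions.

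The cytochrome P450 members split by gene, not by family. Cyp2c11 and Cyp2c13, the male-predominant P450 enzymes of rat liver, rose on whole egg, and Cyp2c7, a female-predominant relative, fell. Cyp2c11 had 858, 1678 and 2241 CPM (lowest, median and highest) in whole egg livers, against 513, 626 and 761 CPM in CAS livers, with no overlap (log2 fold change 1.42, SE 0.21, adjusted p = 7.6e-05). Cyp2c13 had 632, 669 and 697 CPM in whole egg livers, against 229.6, 332 and 456 CPM in CAS livers (log2 fold change 1.01, SE 0.18, adjusted p = 0.000682). The 6 whole egg livers were thus within a narrow band above every CAS liver. Cyp2c7 had 113, 192 and 368 CPM in whole egg livers, against 398, 489.9 and 713 CPM in CAS livers, so that every whole egg liver lay below every CAS liver (log2 fold change -1.28, SE 0.23, adjusted p = 0.000794). Cyp2c22, a further gene of the family, had 569.7, 1079 and 1561 CPM in whole egg livers, against 275, 403 and 778 CPM in CAS livers. Its groups overlapped through rat 18 on whole egg and rat 24 on CAS (log2 fold change 1.38, SE 0.24, adjusted p = 0.000728). The Cyp2c genes are close relatives, and reads that fit several of them may have been left out or misplaced by the counting, so their single values are uncertain.

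Cyp17a1, which in steroid-producing glands makes precursors of androgens, showed the widest called difference of any member. Its 6 whole egg livers held 6.34, 8.12, 9.98, 37.9, 7.03 and 18.0 CPM, against 160.4, 126, 154, 107, 53.0 and 72.4 CPM in the 6 CAS livers. The highest whole egg liver (rat 18) was below the lowest CAS liver (rat 14), and the log2 fold change was -2.94 (SE 0.38, adjusted p = 8.63e-06). Cyp17a1 had no row in the kidney, adipose and PFC tables of ZDF rats, which the rule counts as 0. Cyp1a2, the enzyme that clears caffeine, did not pass (log2 fold change 0.80, SE 0.23, adjusted p = 0.0504), with 337 to 808 CPM in whole egg livers, against 221 to 395 CPM in CAS livers. Over the list of P450 genes, 6 were members, and 3 of them rose and 2 fell.

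The promoters of the 4 Cyp2c members and of Adh6 are shown because the 4 relatives differ in direction while Adh6 rose with 3 of them. They come from RefSeq on the GRCr8 build, a later build than the one the counts rest on, and run from 250 bases before to 50 bases after the annotated start, 5′ to 3′ on the gene's own strand: Cyp2c11 at chr1:246174966-246175265 (+ strand), Cyp2c13 at chr1:248787139-248787438 (- strand), Cyp2c22 at chr1:248980718-248981017 (- strand), Cyp2c7 at chr1:247966144-247966443 (+ strand) and Adh6 at chr2:229576386-229576685 (+ strand). Capitals mark matches to the motifs searched on both strands: the core promoter box TATAAA, the C/EBP motif TTGCNNAA, the motif of liver factor HNF3 spelled TGTTTAC, the HNF4 motif CAAAGTCCA, and for HNF1 both the single arm GTTAAT and the full site, which contains that arm.
Cyp2c11: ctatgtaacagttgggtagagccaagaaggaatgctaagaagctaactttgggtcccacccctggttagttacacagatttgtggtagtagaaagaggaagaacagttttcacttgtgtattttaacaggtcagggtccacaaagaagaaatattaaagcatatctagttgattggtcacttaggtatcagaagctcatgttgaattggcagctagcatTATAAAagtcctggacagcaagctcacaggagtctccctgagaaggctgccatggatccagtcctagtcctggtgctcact
Cyp2c13: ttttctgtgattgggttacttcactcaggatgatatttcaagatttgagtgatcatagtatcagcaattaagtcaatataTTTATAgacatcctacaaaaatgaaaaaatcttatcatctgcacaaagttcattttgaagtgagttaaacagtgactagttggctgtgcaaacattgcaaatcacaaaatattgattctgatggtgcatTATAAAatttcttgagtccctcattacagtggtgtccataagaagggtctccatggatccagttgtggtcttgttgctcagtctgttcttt
Cyp2c22: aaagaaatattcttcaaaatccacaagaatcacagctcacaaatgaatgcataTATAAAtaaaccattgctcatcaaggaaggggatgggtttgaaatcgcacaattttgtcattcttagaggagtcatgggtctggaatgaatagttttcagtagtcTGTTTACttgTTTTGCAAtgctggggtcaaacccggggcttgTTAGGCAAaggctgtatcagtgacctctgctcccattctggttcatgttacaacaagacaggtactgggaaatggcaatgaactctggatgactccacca
Cyp2c7: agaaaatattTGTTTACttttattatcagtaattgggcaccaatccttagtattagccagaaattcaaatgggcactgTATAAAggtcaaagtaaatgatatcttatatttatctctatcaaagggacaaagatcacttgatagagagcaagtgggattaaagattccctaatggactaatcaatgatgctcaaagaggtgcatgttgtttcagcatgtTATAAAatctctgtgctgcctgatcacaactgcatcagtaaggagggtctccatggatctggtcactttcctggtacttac
Adh6: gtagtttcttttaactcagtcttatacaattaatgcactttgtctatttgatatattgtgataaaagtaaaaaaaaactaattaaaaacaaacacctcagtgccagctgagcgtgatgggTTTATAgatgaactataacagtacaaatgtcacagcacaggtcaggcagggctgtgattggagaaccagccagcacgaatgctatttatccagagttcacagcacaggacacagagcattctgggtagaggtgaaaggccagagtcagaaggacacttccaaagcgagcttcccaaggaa

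TATAAA began 31 bases before the annotated start in Cyp2c11 and in Cyp2c7, and 41 before it in Cyp2c13. Further matches lay 172 bases before it in Cyp2c7 and, on the other strand, 170 before it in Cyp2c13, while in Cyp2c22 the only match lay 197 bases before and in Adh6 130 bases before, on the other strand. Cyp2c11 and Cyp2c7, which moved in opposite directions on whole egg, share the place of this match. TGTTTAC was found in Cyp2c22 and Cyp2c7, and TTGCNNAA in Cyp2c22. Aligned end to end, the 4 Cyp2c windows were 49.2% to 57.2% identical. A promoter was matched by symbol for 29 of the 37 named members, and for 28 of them it was a single one. Of these 28, 8 (28.6%) held TATAAA, as did 14.2% of 33469 rat promoters of the same length. The 8 include the 4 Cyp2c members, which are relatives, and a match counted at any place and on either strand. For CAAAGTCCA the numbers were 2 (Baat and Cps1, 7.14%) against 0.391%, for TGTTTAC 2 (7.14%) against 3.78%, for TTGCNNAA 3 (10.7%) against 10.6%, and for GTTAAT 2 (7.14%) against 7.45%, with 0 members for the full HNF1 site, against 0.00299%. These are letter matches in a window and say nothing of a factor's binding.

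The 5 named members among the urinary and male-pattern genes each passed. LOC680406, described by the study as similar to urinary protein 2 precursor, had 3668, 5046 and 8629 CPM in whole egg livers, against 1296, 2070.2 and 2438 CPM in CAS livers, with no overlap (log2 fold change 1.48, SE 0.24, adjusted p = 0.000241). Rup2, urinary protein 2, rose by 1.36 on the log2 scale (SE 0.30, adjusted p = 0.00651), with 1353 to 4258 CPM in whole egg livers, against 425 to 1405 CPM in CAS livers. The lowest whole egg liver (rat 7) fell just below the highest CAS liver. These genes are close relatives by name, so reads may be split between them. Sult1e1, the estrogen sulfotransferase, more active in male than in female rat liver, had 899.9, 1106 and 1499 CPM in whole egg livers, against 376, 621 and 749.8 CPM in CAS livers (log2 fold change 0.93, SE 0.20, adjusted p = 0.00635), with no overlap. With Cyp2c11 and Cyp2c13 these are the 5 members of the list of urinary and male-pattern genes, and all 5 rose, where 28 of the 37 named members passed and 1.65% of all genes were called higher. Of the 9 genes of that list paired with a row, 8 rose and 1 fell.

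Of the plasma carriers, Fetub (fetuin B) and Azgp1 (zinc-alpha-2-glycoprotein) rose and Gc did not pass. Fetub had 1903, 2207 and 6104 CPM in whole egg livers, against 961, 1245 and 2846 CPM in CAS livers (log2 fold change 0.98, SE 0.25, adjusted p = 0.0253). Its whole egg maximum was rat 22 and its CAS maximum rat 14, and the call was lost in 5 of the 12 fits that left out 1 rat, the one without rat 22 among them. Azgp1 had 815 to 1178 CPM in whole egg livers, against 502 to 872 CPM in CAS livers (log2 fold change 0.66, adjusted p = 0.0255), and its call was lost in 6 of the 12 such fits. Gc stood at 10046, 11995 and 12749 CPM in whole egg livers, against 7969, 8433 and 8908 CPM in CAS livers, which did not overlap, yet Gc did not pass (log2 fold change 0.48, SE 0.18, adjusted p = 0.215). Rnase4, a secreted ribonuclease, rose with no overlap (769 to 1073 CPM in whole egg livers, against 366 to 732 CPM in CAS livers, log2 fold change 0.94, adjusted p = 0.000986).

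Of 5 nitrogen and amino acid enzymes among the named members, Otc, Mat1a and Uroc1 rose, Agxt fell and Cps1 did not pass. Agxt, which detoxifies glyoxylate by transferring an amino group from alanine, had 65.2, 90.1 and 112 CPM in whole egg livers, against 117, 245 and 321 CPM in CAS livers (log2 fold change -1.35, SE 0.21, adjusted p = 0.000215). The groups came close, at 112 CPM on whole egg and 117 CPM in rat 24 on CAS, but did not overlap. Otc, ornithine transcarbamylase of the urea cycle, had 474, 763 and 846 CPM in whole egg livers, against 359.6, 400.2 and 493.2 CPM in CAS livers (log2 fold change 0.77, SE 0.18, adjusted p = 0.0125). Cps1, which makes carbamoyl phosphate at the entry of that cycle, had 1634 to 3274 CPM in whole egg livers, against 1301 to 1762 CPM in CAS livers, and missed the threshold (log2 fold change 0.63, SE 0.19, adjusted p = 0.0696). Mat1a, which makes S-adenosylmethionine in adult liver, had 915, 1194 and 2915 CPM in whole egg livers, against 606, 694 and 977 CPM in CAS livers (log2 fold change 0.93, adjusted p = 0.0117), the maximum again being rat 22. Uroc1, urocanase of histidine breakdown, rose by 0.63 on the log2 scale (adjusted p = 0.0309). Its call was lost in 6 of the 12 fits that left out 1 rat. The list holds 48 symbols, of which 18 were paired with a row, and the 3 that rose and 1 that fell stand beside 28 of 37 for all named members. The amino acid transporter Slc38a4, on no list, passed narrowly at 0.66 (adjusted p = 0.0427), and 10 of the 12 fits that left out 1 rat lost it.

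Pathways of sterol and lipid handling held further members. Cyp27a1, the sterol 27-hydroxylase of the acidic route to bile acids, had 319, 335 and 525 CPM in whole egg livers, against 95.1, 177 and 211 CPM in CAS livers, with no overlap (log2 fold change 1.13, SE 0.21, adjusted p = 0.00106). Acox2, the peroxisomal oxidase that shortens bile acid side chains, had 689, 781 and 1008 CPM in whole egg livers, against 268, 379 and 931 CPM in CAS livers (log2 fold change 0.91, adjusted p = 0.0125). Its CAS maximum was rat 14, and the other 5 CAS livers lay below every whole egg liver. The enzymes that conjugate bile acids to glycine or taurine and activate them with coenzyme A, Baat and Slc27a5, had log2 fold changes of 0.64 and 0.59 and stood just outside the threshold (adjusted p = 0.0519 each). So 2 of the 4 bile acid members rose and 0 fell. Adh6, a class of alcohol dehydrogenase, had 2883, 3286 and 4722 CPM in whole egg livers, against 944, 1272 and 1582 CPM in CAS livers, with no overlap (log2 fold change 1.44, SE 0.20, adjusted p = 2.88e-05). Uox (urate oxidase) rose by 0.66 on the log2 scale (adjusted p = 0.0319) and Slco2a1, a prostaglandin transporter, by 0.67 (adjusted p = 0.0309). Hsd17b13, a protein of lipid droplets, fell by 0.67 on the log2 scale (adjusted p = 0.032), with 159 to 259 CPM in whole egg livers, against 295 to 432 CPM in CAS livers. RGD1305807, a hypothetical gene, fell by 0.73 (adjusted p = 0.0309). With 1 rat left out, the calls of Uox and Hsd17b13 were lost in 6 of 12 fits each, and those of Slco2a1 and RGD1305807 in 8 of 12 each.

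The named members that did not pass were Gc, Cps1, Sult2a1 (a steroid sulfotransferase), Baat, Slc25a47 (a mitochondrial carrier), Cyp1a2, Slc27a5, Tymp and Tmprss6 (the protease that restrains hepcidin), with adjusted p of 0.0504 to 0.215 in edgeR. The study, which used DESeq2, listed each of them as called by diet in ZDF liver, so the 2 analyses differ on these genes. No member carried a symbol on the lists of coagulation, complement, protease inhibitor, iron and acute phase genes, of which only 2, 1, 0, 1 and 0 genes were paired with an identifier in the table. The lists were drawn up with earlier results of these data known, and the symbols are those of genes the study called, so the counts above describe the named members and not the pathways. In the 150 members, 13 were higher on whole egg with no overlap between the groups, where 1.21% of all genes were, and 6 were lower with no overlap, where 0.782% were. These shares cover genes of any level, and none was taken over genes of like level. Leaving out 1 rat at a time gave 21 to 36 called members, the fewest without rat 3 and the most without rat 14, and 20 of the 28 were called in all 12 such fits. With only the rats whose strain is the same in both sources, 2 on whole egg and 4 on CAS, 18 members were called, 9 higher and 9 lower, and 14 of these were among the 28. The other 14 of the 28 were not called in these 6 rats. Of them NEWGENE_2134, Slc38a4, Fetub, Uox, Mat1a, Sult1e1, Azgp1, Pon1, Otc, Slco2a1, Cyp27a1 and Uroc1 had log2 fold changes of 0.35 (Slc38a4) to 0.94 (Sult1e1), Hsd17b13 had -1.02 and RGD1305807 -0.86. Mat1a stood at 0.48 in these rats, against 0.93 in all 12. Slc25a47, not called in all 12 rats (-0.75), was called in these 6 (log2 fold change -1.72, adjusted p = 0.00468 in edgeR).

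The share of a liver library taken up by the members was 29.6% to 37.2% on whole egg and 28.5% to 32.3% on CAS. Only rat 22 on whole egg stood out, with 37.2% (95% exact binomial interval 37.16 to 37.24, counting error only), and the other 5 whole egg livers had 29.6% to 31.2%. Among CAS livers rat 14 was highest at 32.3% (32.19 to 32.4). Both rats also had the highest TMM factors of their diet, 1.12 for rat 22 and 1.24 for rat 14. Without both, a choice made after seeing the data, 42 members were called, 32 higher and 10 lower, the 28 among them.

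Genotype was compared in the casein livers, with 6 ZDF and 5 lean rats in 1 table. No member passed in limma on log2(CPM + 1) at an FDR of 5%, and 1 of 8100 genes did (0.0123%). At an unadjusted p under 0.05 stood 23 members, where 5.17% of all genes did. Of these, 9 were higher in ZDF (2.6% of all genes were) and 14 lower (2.57%). Here too no share over genes of like level was taken. DESeq2 called 4 members, all higher in ZDF, where it called 0.185% of all genes higher and 0.123% lower, and edgeR and limma-voom called 0. The 4 were Cyp2c22, Slc25a47, Apoa4 and Cyp17a1, and they are given here as values. DESeq2 and edgeR are made for counts, and the values of this table had been scaled and rounded per library. Their p-values here are therefore uncertain. The members' median was -0.09 on the log2 scale, with 59 above 0 and 91 below, against 0.00 over all genes. That sign turned to 0.0174 in the rats with the same strain in both sources and to 0.0477 with the strain of the labels. The rats with the same strain in both sources were only ZDF rats 1, 3, 5 and 9 and lean rats 15 and 19. The ZDF libraries of this comparison are the CAS libraries of the diet comparison and those that chose the members, so the results are not independent of each other. In simulated data this limma test called 12 of 28 members given a log2 fold change of 1 in either direction. A member that did not pass is therefore not shown to be equal in both genotypes.

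Cyp2c22 had 276, 405 and 782 CPM (lowest, median and highest) in ZDF livers, against 308, 271, 76.5, 93.4 and 102 CPM in the 5 lean livers. The log2 fold change was 1.59 (SE 0.33, adjusted p = 0.137 in limma and 0.027 in DESeq2). Of the lean livers, rats 15 and 19 held the high values, and rat 15 exceeded the lowest ZDF liver. The sample labels also give lean for rats 15 and 19, but ZDF for the other lean rats, 8, 4 and 12. For the ZDF rats 14 and 24 the labels give lean. Slc25a47 had 262, 342 and 371 CPM in ZDF livers, against 191, 109, 225, 163 and 167 CPM in lean livers, with no overlap (log2 fold change 1.00, SE 0.23, adjusted p = 0.179 in limma and 0.032 in DESeq2). Apoa4 had 1539.9, 1955 and 2341 CPM in ZDF livers, against 1493, 702, 1184, 979 and 736 CPM in lean livers. These did not overlap either, though rat 15 came close (log2 fold change 1.03, SE 0.25, adjusted p = 0.233 in limma and 0.0493 in DESeq2). Cyp17a1 had 53.5, 117 and 161 CPM in ZDF livers, against 64.1, 31.1, 40.2, 5.73 and 40.6 CPM in lean livers, with rat 15 again inside the ZDF range. Its log2 fold change was 1.86 (SE 0.48, adjusted p = 0.304 in limma and 0.0335 in DESeq2). In all, 2 members were higher in ZDF with no overlap (0.247% of all genes were) and 0 were lower (0.321%). Without rat 15, which is lean in both sources, limma called Cyp2c22 (log2 fold change 1.87, adjusted p = 0.00781) and Apoa4 (1.19, adjusted p = 0.049).

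**Figure D4:**
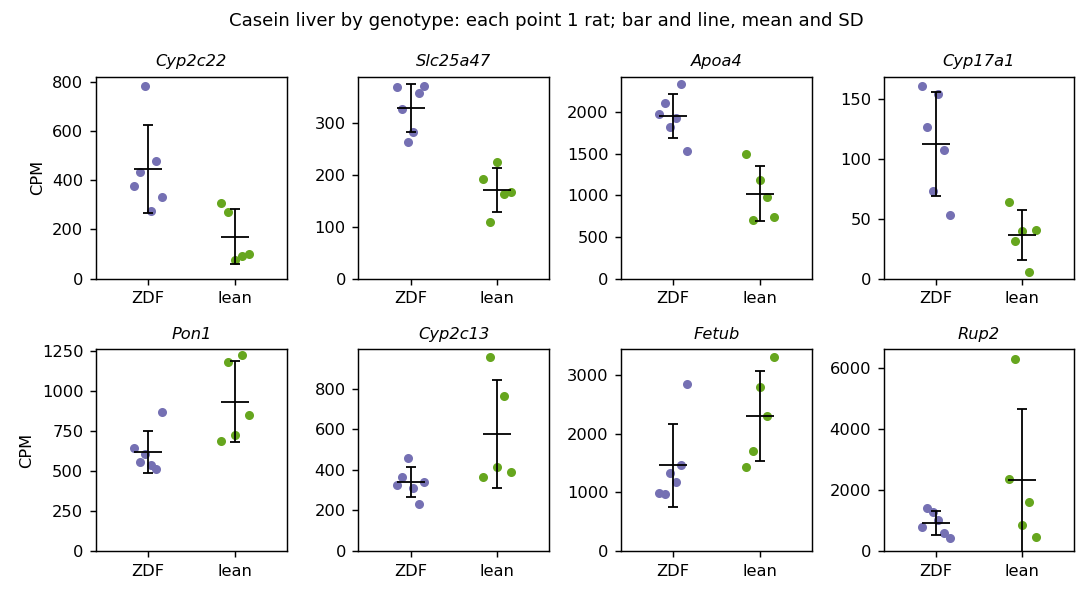
CPM (y axis, each panel from 0) in the casein livers of 6 ZDF and 5 lean rats for 8 members; each point is 1 rat, the short bar the mean and the line 1 SD to each side. Slc25a47 and Apoa4 do not overlap between genotypes, the other panels do, and Rup2 shows 1 lean rat at 6304 CPM.

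Of the named members with lower values in ZDF than in lean livers, none passed, and those with the smallest p are given first. Pon1 averaged 619 ± 130.4 CPM in ZDF livers and 933 ± 253 CPM in lean livers (SD, n = 6 and 5; log2 fold change -0.53, SE 0.18, adjusted p = 0.783 in limma). Cyp2c13 averaged 339 ± 74.3 CPM in ZDF livers and 578 ± 268 CPM in lean livers (log2 fold change -0.64, SE 0.23, adjusted p = 0.921). For Fetub the log2 fold change was -0.66 (SE 0.27) and for Slc27a5 -0.49 (SE 0.23), both with an adjusted p of 0.932. Rup2 was uneven among lean rats, with 2378, 6304, 859, 1614 and 459 CPM in the 5 lean livers, against 427 to 1411 CPM in ZDF livers. With the strain of the sample labels in place of the column names, the log2 fold change was -0.70 for Cyp2c22, 0.13 for Fetub and 0.44 for Slc27a5, and Slc27a5 was also at 0.11 in the rats with the same strain in both sources, so these 3 genotype directions rest on which rats are taken as ZDF. In those rats limma called Slc25a47 (1.38) and Cyp17a1 (1.77) higher and Rup2 (-1.91) lower in ZDF. The lean side of these calls was rats 15 and 19 alone, with Rup2 at 2378 and 6304 CPM.

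Traces of the members appeared in the libraries of every other tissue. Summed over the members, they came to 1443 to 142704 CPM in the 24 adipose libraries (median 6855), 1538 to 19054 CPM in the 24 kidney libraries (median 3247) and 1134 to 19569 CPM in the 24 PFC libraries (median 1553). These sums cover unlike sets, since the tables hold a row for 135 to 137 members in adipose tissue, 119 in kidney, 133 in lean PFC and 124 in ZDF PFC, where the highest member (ENSRNOG00000002911) and Gc have none. Over the 90 members with a row in each of the 6 tables, a set chosen after seeing the data, the medians were 3696 CPM in adipose tissue, 2086 CPM in kidney and 1304 CPM in PFC. In casein ZDF rats, the typical member stood at 3.19% of its liver level in adipose tissue, 1.60% in kidney and 0.791% in PFC. Adipose tissue was the highest other tissue for 107 members, kidney for 30 and PFC for 8. The other 5 members, Cyp17a1 among them, had no row in any of these 3 tables. These casein ZDF values include libraries of low total: rat 5 in kidney (138171), and rats 3 and 5 in PFC (67861 and 164795). Without them, the group median of the summed levels went from 4972 to 2765 CPM in kidney and from 1944 to 1475 CPM in PFC. Within each single library the order of the members followed their order in liver: Spearman's rho across members was 0.73 to 0.91 in adipose tissue, 0.56 to 0.87 in kidney and 0.59 to 0.83 in PFC. These rho are descriptions over genes that share 1 library, with rows absent from a table left at 0, which can shift them. The rule also keeps each member's casein ZDF median at least 10-fold below liver, so the order in those libraries is not independent of it. The deposited values of these tissues had been scaled and rounded per library, so no counting interval is given for them.

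The highest traces came from few libraries. The highest was the adipose library of rat 11 (ZDF, whole egg), where members made up 14.3% of a total of only 30819 and the typical member reached 54.5% of its liver level. Next came the adipose libraries of rat 10 (lean, whole egg) at 9.40%, rat 14 (ZDF, CAS) at 7.89%, rat 16 (ZDF, whole egg) at 3.64% and rat 4 (lean, CAS) at 2.69%, each with a total of 689224 or more. In PFC the highest was rat 3 (ZDF, CAS) at 1.96%, with a total of 67861, and in kidney rat 1 (ZDF, CAS) at 1.91%. These libraries came from both diets and both genotypes. The group medians in adipose tissue were 7316 CPM in ZDF rats on whole egg, 10850.2 CPM in ZDF rats on CAS, 4587 CPM in lean rats on whole egg and 6456 CPM in lean rats on CAS, closer together than the lowest and highest library of each group.

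**Figure D5:**
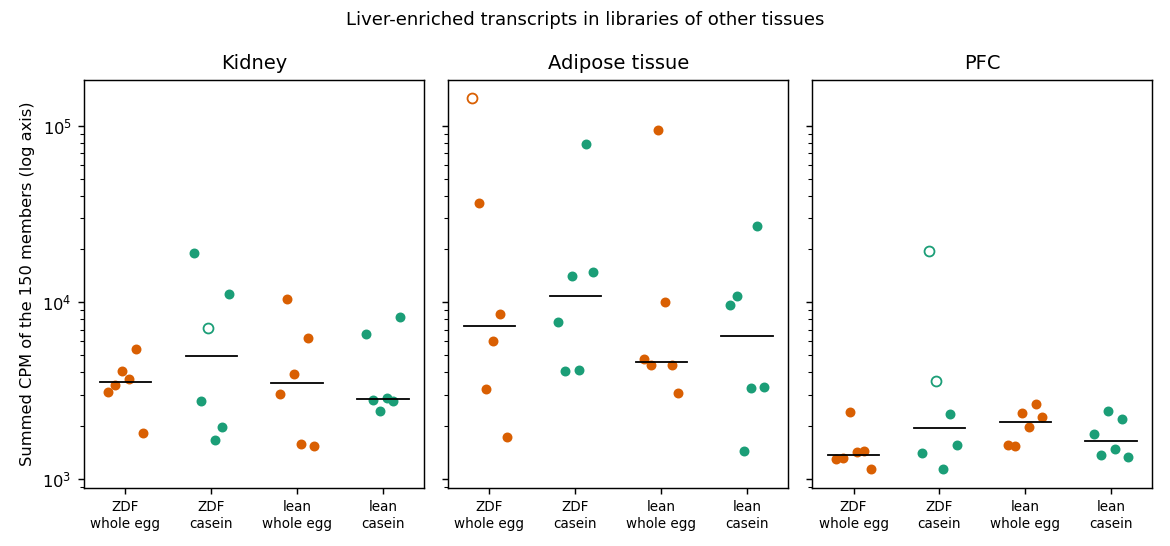
Summed CPM of those of the 150 members with a row in the table (y axis, log) in each kidney, adipose and PFC library, by genotype and diet; each point is 1 library, the line the group median, and open circles are libraries with a deposited total under 200000. Adipose tissue has the widest spread, 1443 to 142704 CPM, and each of its groups holds 1 library far above the rest.

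Gc shows the spread of a single abundant member. In adipose tissue it had 53.0, 129.6 and 4316 CPM (lowest, median and highest) in ZDF rats on whole egg, against 77.7, 292 and 1406 CPM in ZDF rats on CAS, and 47.9, 179 and 2503 CPM in lean rats on whole egg, against 28.1, 170.2 and 733 CPM in lean rats on CAS. The 4 groups overlapped throughout. Some members stood above the common trace of a tissue. Tymp was at 9.48% of its liver level in the PFC of casein ZDF rats, 12.0 times the typical member, and its 24 PFC libraries ran from 6.07 to 36.2 CPM, a 5.96-fold range, whereas Apoa1 there ran from 1.28 to 162 CPM. In kidney Slco2a1 stood at 8.68% of its liver level, Adh6 at 7.10% and Cyp2c11 at 5.81%, where the typical member was at 1.60%. Adh6 held 29.8 to 284 CPM over the 24 kidney libraries, a 9.54-fold range, and Apoa1 4.14 to 109 CPM, a 26.4-fold range. Hsd17b13 and Cyp27a1 stood at 2.98% each in PFC. What share of these values comes from the tissue's own cells was not tested.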

How the data were processed

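The authors made QuantSeq 3' mRNA libraries from 4 tissues (liver, kidney, adipose, PFC) of 24 rats, trimmed reads with BBDuk, aligned and counted them per gene with STAR (Ensembl release 94, RNO 6.0), left out genes seen in too few samples and tested diet with DESeq2 after TMM. The ZDF liver table as deposited holds counts per gene. The other 7 mRNA tables are called raw counts too, but their deposited values skip or double integers regularly, and libraries that stand in both liver tables differ by 1 constant factor each (0.853 to 1.11), so they were treated as scaled scores, relative to a factor per library that is not given in the sources used here. Lean rats on whole egg were not analysed here in liver, and the ZDF liver table's lean column (rat 8) was dropped.

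CPM used column totals. Diet in ZDF liver (6 whole egg, 6 CAS) was tested with edgeR 4.0.16 (quasi-likelihood, TMM). Genotype on casein (6 ZDF, 5 lean) had been planned in edgeR, but the scaled values were tested with limma 3.58.1 on log2(TMM-scaled CPM + 1), which understates changes of low genes, with edgeR as an alternative. Tests were two-sided, adjusted by Benjamini-Hochberg over all genes at an FDR of 5%, in R 4.3.3; DESeq2 1.42.0, limma-voom, other scaling, other filters, other pseudocounts and leaving out rats were alternatives. Both tests were checked on simulated data first. At a log2 fold change of 1 in either direction, the diet test called 42 of 100 changed genes (21 of 25 members). The genotype test called 17 of 100 (12 of 28 members). At a log2 fold change of 2 they called 86 and 70 of 100. The simulated counts were not scaled and rounded per library, so the genotype check differs from the data in that.

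The members and lists were chosen with earlier results of these data known. Text names the 10 highest members, up to 8 called members per direction with the smallest p, the 4 highest per other tissue, those at the bounds, up to 4 per list, and those with a printed promoter; at most 2 genes without a symbol per direction are printed, and other named members were picked after their values were seen. The files pair no identifier with a symbol. Values of 1 member are not reported here.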

Additional observations from a re-analysis of the deposited data

Results flagged for a closer look

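In groups of 5 or 6 rats, a library at one end was marked when its gap to the next took up more of the group's range than 1 group in 20 shows by chance. Of 125 groups counted, 26 were marked, 7 of 17 groups of summed member levels and 19 of 108 groups of named members. The 17 include lean rat 8 alone in the ZDF liver table, which could not be marked. They also include the casein livers of ZDF rats once from each liver table. The summed levels marked were the highest library of each adipose group: 142704 CPM in ZDF on whole egg (rat 11), 78925 CPM in ZDF on CAS (rat 14), 94029 CPM in lean on whole egg (rat 10) and 26870.1 CPM in lean on CAS (rat 4). The others were the liver of rat 22 on whole egg (371979 CPM), the PFC of rat 20 on whole egg (2376 CPM) and the PFC of rat 3 on CAS (19569 CPM).

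In whole egg livers, rat 22 was the high end for NEWGENE_2134 (9614 CPM), Adh6 (4722 CPM), Fetub (6104 CPM), Mat1a (2915 CPM), Rnase4 (1073 CPM) and Tmprss6 (154 CPM). Rat 18 was the high end for Cyp2c7 (368 CPM) and Cyp17a1 (37.9 CPM), and rat 11 for Acox2 (1008 CPM). In CAS livers of ZDF rats, rat 14 was the high end for Fetub (2846 CPM), Pon1 (864 CPM), Rnase4 (732 CPM), Acox2 (931 CPM), Slc27a5 (329 CPM), Tymp (556 CPM) and Tmprss6 (309.8 CPM). In lean casein livers, rat 19 was the low end for NEWGENE_2134 (3046 CPM) and the high end for Baat (661 CPM), and rat 12 the high end for Mat1a (1321 CPM). Rats 14 and 22 have the highest TMM factors of their diets, and the part of this in the values was not tested.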

How the results depend on the processing

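No paired analysis was possible because diets and genotypes were given to different rats and the labels number rats, not pairs. The count of 28 members called by diet was 12 with an absolute log2 fold change of at least 1 and 18 in rats with the same strain in both sources, and 21 to 36 with 1 rat left out, and it stayed within 1.5 times 28 under DESeq2 (35), limma-voom (33), limma (31), RLE (27), column totals (23), TMM over non-members (31), filterByExpr (29), an FDR of 10% (37) and, added later, without rats 14 and 22 (42). The genotype count of 0 was 4 in DESeq2, 3 in rats with the same strain in both sources (Slc25a47 and Cyp17a1 higher, Rup2 lower in ZDF), 1 without rats 14 and 19, and 0 to 2 with 1 rat left out. Over all genes that count was 1 in limma, 25 in DESeq2, 3 in edgeR, 2 with column totals, a pseudocount of 4 or an FDR of 10%, 11 in rats with the same strain in both sources, 6 without rats 14 and 19, and 0 to 20 with 1 rat left out (20 without rat 15). The diet count over all genes was 285, against 415 in DESeq2, 208 with an absolute log2 fold change of at least 1, 114 in rats with the same strain in both sources and 191 to 386 with 1 rat left out. The members' median by diet was 0.22 to 0.32 with 1 rat left out. By genotype it was -0.12 to -0.06 and turned to 0.0174 in rats with the same strain in both sources and 0.0477 with the strain of the labels. The same strains reversed Fetub (0.13), Cyp2c22 (-0.70) and Slc27a5 (0.44), and Slc27a5 was 0.11 in rats with the same strain in both sources; the cause was not tested. No diet direction of a named member reversed in 23 settings, 11 of the 28 calls passed in each of them, and 8 (Slc38a4, Fetub, Uox, Azgp1, Hsd17b13, Slco2a1, Uroc1, RGD1305807) were lost when 1 rat or another was left out. Each of the 9 named members not called passed under at least 1 setting. The number of genes passing the rule was 303 at 5-fold, 198 at 20-fold, 333 at 10 CPM, 186 at 50 CPM and 261 on whole egg libraries.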

Other observations

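Adh6 and Apoa1, which moved in opposite directions on whole egg in ZDF liver, were set against each other in the traces after their values had been seen. The ratio of Adh6 to Apoa1 CPM was 2.43 to 6.73 in the 6 whole egg livers and 0.306 to 0.833 in the 6 CAS livers. In ZDF adipose libraries it was 0.933 to 7.36 on whole egg (median 1.93) and 0.481 to 1.09 on CAS (median 0.797), so the groups overlapped slightly. The whole egg libraries with the largest traces, rats 11 (14.3%) and 16 (3.64%), had ratios of 0.966 and 0.933. The livers of these rats had 5.79 and 6.08. Rats 7, 18, 20 and 22, with traces of 0.172% to 0.863%, had 1.53 to 7.36. In lean adipose libraries the ratio was 0.355 to 3.24 on whole egg (median 0.736) and 0.626 to 2.92 on CAS (median 1.72). In PFC of ZDF rats it was 0.862 to 2.29 on whole egg and 0.25 to 2.17 on CAS. In kidney, where Adh6 stood above the common trace, it was 2.43 to 11.4 on whole egg and 1.21 to 19.4 on CAS in ZDF rats. What a trace owes to liver RNA was not tested.

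A member with no symbol, ENSRNOG00000021029, had the widest diet difference short of the threshold. It held 2.72, 0.508, 12.0, 0.277, 0.469 and 285 CPM in the 6 whole egg livers, against 238, 298, 126, 524, 746 and 227 CPM in the 6 CAS livers. Of the whole egg livers, 5 lay at 12.0 CPM or less and rat 22 lay within the CAS range (log2 fold change -2.84, SE 0.83, adjusted p = 0.0608 in edgeR). In rats with the same strain in both sources, 2 on whole egg and 4 on CAS, the log2 fold change was -7.50 (adjusted p = 1.67e-06). In casein livers it had 126 to 749 CPM in ZDF rats, against 606, 995, 528, 546 and 723 CPM in lean rats (log2 fold change -1.07, adjusted p = 0.523 in limma). Another, ENSRNOG00000027024, had 29.1 to 183 CPM in ZDF livers, against 96.6, 42.9, 35.0, 1.64 and 7.68 CPM in lean livers, which did not pass (log2 fold change 2.52, SE 0.70, adjusted p = 0.425 in limma).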
